A study of Mus musculus with 13 samples.

Results

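The cells described here were neurons of the mouse retrosplenial cortex that carried transcripts of Deptor, Il1rapl2 or Aldh1l1 and little of the genes that mark 5 other groups of neurons in the same tissue. A cell was selected on its CPM values, where CPM is a gene's count per 1000000 counts of the cell, or of the summed cells where sums are given. The summed CPM of Deptor, Il1rapl2 and Aldh1l1 had to reach 100, with Calb1 below 100, Tnnc2 and Eps8l2 together below 30, C1ql2 and Qrfpr below 50, Osr1, Oprk1 and Car12 below 40, and Foxp2 and Syt6 below 20. This gate took 98 of 765 cells, or 12.8% (exact 95% binomial interval 10.5 to 15.4), and left 667 other cells. Since the gate genes were proposed from these same cells, their own levels are given as a description with no test, and the tests of other genes describe the chosen cells and are no independent evidence that they form a type. They are called Deptor-gated neurons below.

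All mice were wild type of strain B6, with no treatment or control group in the labels, and their age was not given there. Cells labelled as neurons came from dissected and dissociated tissue of acute slices, pooled across slices, in 11 samples from 3 animals (3 samples of animal 1, 4 each of animals 2 and 3), and each cell's deposited name carried the dissection level, anterior, medium or posterior. A second data set held 2 cryosections of flash-frozen wild-type brain, 10 µm thick, measured on Visium slides, on which each spot is a small region that can hold several cells. The samples of cells held between 2306470 and 15974543 counts each, and a cell of animal 1 had a median of 65843 counts against 132797 and 185995 in animals 2 and 3. The Deptor-gated neurons had a median of 144975 counts and 5256 detected genes per cell, and the other cells 136812 and 5429. No barcode occurred more than once within a sample, but 237 of the 331 barcodes recurred in other samples, and no 2 cells held identical counts (0 pairs).

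DEPTOR binds the kinase mTOR and inhibits it, and mTOR sets protein synthesis, growth and autophagy by nutrient and growth factor signals. IL1RAPL2 belongs to the interleukin 1 receptor accessory protein-like family, whose members act at synapses as adhesion proteins. ALDH1L1 is a folate enzyme of one-carbon metabolism that is best known as a marker of astrocytes, and PTPRM is a receptor tyrosine phosphatase that binds itself on neighbouring cells. Intratelencephalic neurons of layer 5 send axons to other cortex and striatum, whereas extratelencephalic neurons of layer 5 project to the brainstem, thalamus and spinal cord and depend on FEZF2 and BCL11B (CTIP2).

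Deptor was the most widely detected of the gate genes. Its level in the summed Deptor-gated neurons was 248, 160 and 158 CPM in animals 1, 2 and 3, against 17.1, 14.6 and 9.57 CPM in the other cells, and 92.9% of the gated neurons had a count of it against 30% of the other cells. For Il1rapl2 the levels were 46.5, 47.6 and 54.0 CPM against 0.514, 3.13 and 4.65 CPM, with a count in 40.8% of the gated neurons. Aldh1l1 gave 62.0, 76.6 and 87.7 CPM against 11.8, 16.1 and 17.6 CPM, with a count in 55.1%. Ptprm, which the gate did not use but which was proposed with it as a marker, reached 13.6, 15.1 and 57.6 CPM against 0.720, 2.30 and 2.59 CPM, and animal 3 stood above the other two. All 3 gate genes were detected together in 24 of the 98 cells, Deptor alone in 29, Deptor with Aldh1l1 in 24 and Deptor with Il1rapl2 in 14. The remaining cells had no count of Deptor, 5 of them with Aldh1l1 alone, 1 with Il1rapl2 alone and 1 with both. Over the 10 samples with at least 3 gated neurons, Deptor ran from 117 through a median of 180 to 333 CPM in the gated sums and from 6.04 through 12.1 to 28 CPM in the others, with no overlap.

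**Figure D1:**
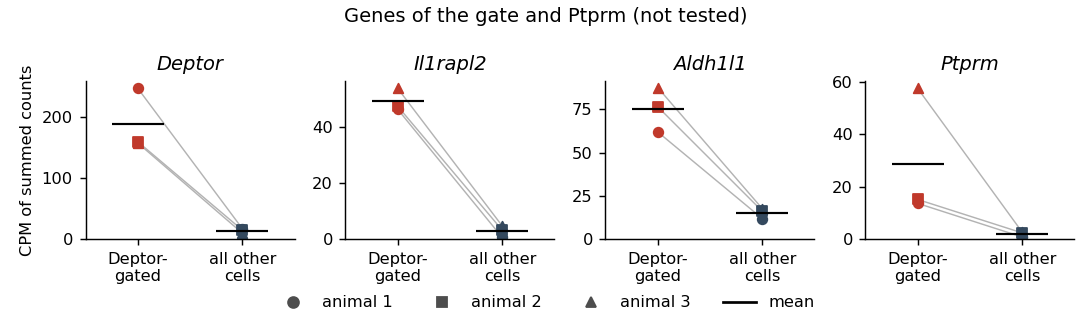
Level of Deptor, Il1rapl2, Aldh1l1 and Ptprm in CPM in the summed Deptor-gated neurons and in all other cells, one point per animal. The gated neurons lie above the other cells in every animal for each of the 4 genes, and the cells were selected on the first 3.

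The gate cut through a continuous range of values. Gate sums lay between 100 and 150 CPM in 16 cells, between 150 and 300 CPM in 40 and between 300 and 1000 CPM in 42. Just inside the limit, the 16 cells held 57.9 CPM of Deptor, 268 CPM of Etv1 and 67.9 CPM of Fezf2. Just outside, 17 cells with sums of 50 to 100 CPM and no other gate passed held 50 CPM of Deptor, 110 CPM of Etv1 and 54.5 CPM of Fezf2. A further 74 cells reached the Deptor gate and at least 1 other, most often that of Calb1 (34 cells) or of Tnnc2 and Eps8l2 (22 cells), and are among the other cells here. Their median total was 150005 counts, and no doublet caller was run.

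Deptor-gated neurons were found in every sample, with 2 to 15 cells each. They made up 14 of 152 cells in animal 1 (9.21%), 32 of 304 in animal 2 (10.5%) and 52 of 309 in animal 3 (16.8%), which is also the order of the animals' depth per cell; the part of depth in these shares was not tested. By level, they were 36 of 256 anterior cells (14.1%), 23 of 217 medium cells (10.6%) and 39 of 292 posterior cells (13.4%). Depth differed between levels too, with medians of 176916, 135072 and 112362 counts per cell in the same order, and its part was not tested. The posterior share was 6.94, 11.9 and 18.9% in animals 1, 2 and 3, and the anterior share 13.3, 13.2 and 15.2%. The posterior share was thus higher in 1 of 3 animals, and the difference of the means was -1.33 percentage points (12.6% ± 6.02 against 13.9% ± 1.14, SD, n = 3 each; two-sided exact permutation test, p = 0.70, where 3 against 3 cannot go below 0.10). The test treated the posterior and anterior shares as separate groups, although each animal gave both. Without animal 1 the difference was 1.2 points. The medium shares were 8.57, 5.62 and 16.1% (10.1% ± 5.42), so that animal 3 had the highest share at each level. Shares are of the deposited cells, which followed dissection and filters not described in the sources used here.

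**Figure D2:**
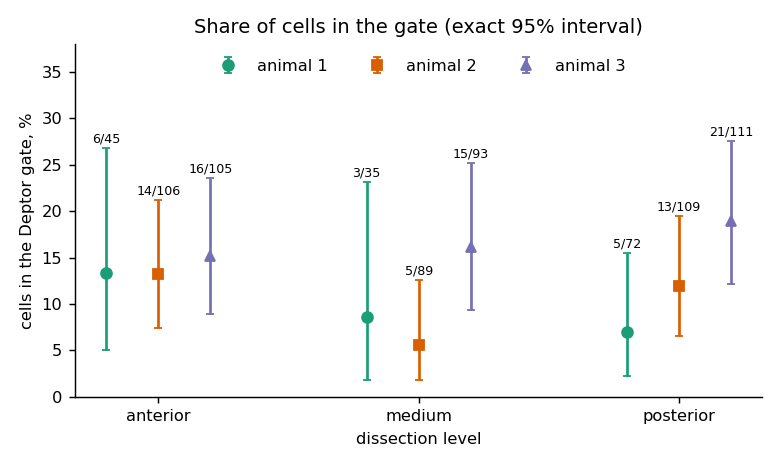
Share of Deptor-gated neurons among the deposited cells of each animal and dissection level, in percent, with exact 95% binomial intervals for counting error and the number of gated and of all cells above each point. The anterior shares lie between 13.2 and 15.2%, and the posterior shares spread from 6.94% in animal 1 to 18.9% in animal 3.

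Markers of excitatory neurons were present throughout. Slc17a7, the vesicular glutamate transporter VGLUT1, had a count in 100% of the gated neurons. The summed level of 5 excitatory markers ran from 648 to 811 CPM over the animals, against 494 to 522 CPM in the other cells. Of these markers, 2 had every gated sum above every other sum, 1 had every gated sum below, and 0 passed the test against all other cells. Inhibitory markers were low, with a summed level of 3.97 to 29.8 CPM against 36.8 to 102 CPM. Of the astrocyte markers other than Aldh1l1, Aqp4 had no count in the gated neurons, Gfap had 4, Slc1a3 8 and Gja1 20. Aldoc, the brain aldolase that is high in astrocytes, made up most of that list's summed level, with 96.0, 87.9 and 292 CPM against 78.9, 117 and 98.6 CPM, and the values overlapped. The oligodendrocyte list summed to 126 to 330 CPM against 127 to 285 CPM, and Mbp, the myelin basic protein gene of oligodendrocytes, had a count in 73.5% of the gated neurons and 62.4% of the other cells. A share of cells with a count can therefore include such RNA, at median depths of 144975 and 136812 counts. Markers of microglia and endothelium were not analysed here.

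The label of layer 5 intratelencephalic neurons was met in part. Of its 7 markers, Deptor, Il1rapl2 and Ptprm belong to the gate or were proposed with it. Etv1, a transcription factor of layer 5, had a count in 86.7% of the gated neurons and 56.7% of the other cells, and stood at 64.0, 265 and 233 CPM against 201, 143 and 124 CPM, so that animal 1 ran opposite to the other two. Fezf2 had a count in 75.5% against 46.9%, at 72.7, 73.7 and 133 CPM against 112, 107 and 60.8 CPM. Rorb was detected in 7.14% of the gated neurons and Hsd11b1 in 14.3%, at no more than 12.3 and 44.1 CPM in any animal. Neither Etv1 nor Fezf2 passed the test against all other cells (log2 fold changes of 0.21 and 0.04, adjusted p 0.936 and 0.986). Of the 4 markers of superficial layers, Calb1, which the gate limits, and Otof summed to at most 1.70 CPM, and Cux2 and Lamp5 were not analysed here. Markers of other deep-layer groups were also present. Near-projecting markers of layers 5 and 6 summed to 378 to 1053 CPM per animal, against 753 to 1029 CPM in the other cells. Layer 6 corticothalamic markers, among them the gate genes Foxp2 and Syt6, summed to 156 to 219 against 142 to 336 CPM. Layer 5 extratelencephalic markers, among them Fezf2, summed to 175 to 291 against 452 to 754 CPM. Layer was not measured in dissociated cells, and projection targets were not measured at all.

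Against all other cells, the Deptor-gated neurons had higher S100a10, Wnt7b, Trbc2 and Fam3c and lower Cdh13, Igfbp4 and 6330527O06Rik. These were the only genes of 12608 tested to pass an adjusted p below 0.05 and a log2 fold change of at least 1 in either direction (7 genes, 0.0555% of those tested), while 1147 had an unadjusted p below 0.05. Counts were summed per animal and tested with edgeR's quasi-likelihood test with the animal as a block. A p-value thus rests on how much the difference within an animal varied over 3 animals, with the estimate of spread moderated across genes.

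S100a10, also called p11, is a partner of annexin A2 that carries membrane proteins such as serotonin receptors to the cell surface. Its level was 220, 192 and 269 CPM in the gated neurons and 19.0, 37.1 and 17.5 CPM in the other cells, with no overlap. Its log2 fold change was 3.31 (SE 0.32, adjusted p 0.0348), and 86.7% of the gated neurons had a count of it against 26.7% of the other cells. By sample, its gated sums ran from 132 through a median of 249 to 371 CPM and the others from 9.87 through 22.6 to 60.3 CPM. Wnt7b, a secreted Wnt ligand, was at 84.3, 74.9 and 58.2 CPM against 11.3, 16.9 and 10.1 CPM (log2 fold change 2.54, SE 0.27, adjusted p 0.0421). The constant region gene Trbc2 of the T cell receptor beta chain was at 162, 120 and 195 CPM against 27.2, 33.7 and 39.0 CPM (2.26, SE 0.20, adjusted p 0.0348), and counts on this segment do not tell which transcript was read. Fam3c, which encodes a secreted cytokine-like protein, was at 238, 482 and 600 CPM against 84.4, 132 and 133 CPM (1.88, SE 0.15, adjusted p 0.0348). For each of the 4 genes, every gated sum lay above every sum of the other cells.

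Cdh13 encodes T-cadherin, a cadherin held in the membrane by a lipid anchor. Its level was 13.6, 7.75 and 6.75 CPM against 105, 93.1 and 52.4 CPM (log2 fold change -3.15, SE 0.27, adjusted p 0.0348). Igfbp4, which binds insulin-like growth factors, was at 75.6, 46.1 and 41.3 CPM against 223, 208 and 228 CPM (-2.06, SE 0.21, adjusted p 0.0348). The RNA 6330527O06Rik was at 273, 303 and 415 CPM against 969, 673 and 1128 CPM (-1.44, SE 0.13, adjusted p 0.0348). All 3 genes were lower in each animal, without overlap. Leaving out animal 1, the shallowest, left 0 calls, with adjusted p-values of 0.325 for S100a10, 0.314 for Wnt7b, 0.227 for Trbc2 and Cdh13 and 0.223 for Fam3c and Igfbp4. All 7 genes kept their direction without it (S100a10 3.18, Cdh13 -3.24), and without the replicate block 5 passed, while Fam3c (adjusted p 0.0628) and 6330527O06Rik (0.0512) did not. Wnt7b was also lost without animal 3 (adjusted p 0.0608), the other 6 were not, and all 7 passed without animal 2. With Aldh1l1 taken out of the gate, Wnt7b missed the threshold as well (log2 fold change 1.82, adjusted p 0.118).

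**Figure D3:**
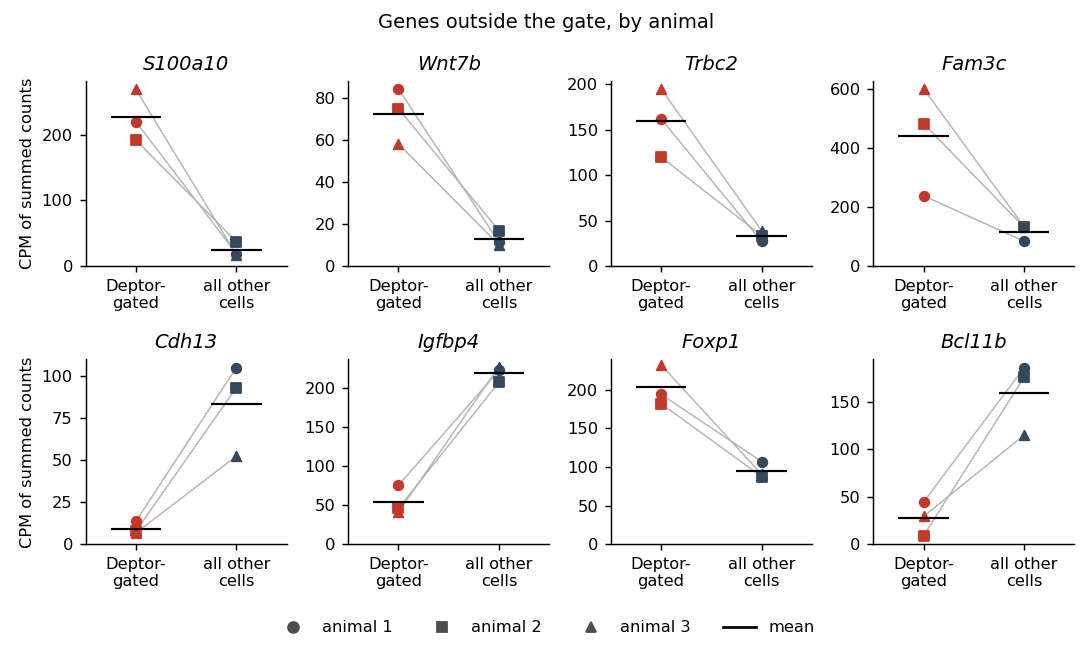
Level in CPM of S100a10, Wnt7b, Trbc2, Fam3c, Cdh13, Igfbp4, Foxp1 and Bcl11b in the summed Deptor-gated neurons and other cells, one point per animal. The 2 sets of points do not overlap in any of these genes, although Foxp1 and Bcl11b missed the adjusted threshold in the sums per animal.

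A finer sum, per sample and with the sample as a block, gave 141 of 10360 genes (1.36%), 34 higher and 107 lower, with all 7 genes above among them. Samples of 1 animal are not independent mice, so these p-values may be too small. Among projection neuron transcription factors, Foxp1 was at 194, 182 and 232 CPM against 107, 87.7 and 90.7 CPM, with adjusted p 0.0862 over animals and 6.33e-05 over samples in edgeR's test. Bcl11b was at 44.6, 9.08 and 29.5 CPM against 186, 176 and 115 CPM, with a log2 fold change of -2.68 (SE 0.46) and adjusted p 0.154 over animals and 0.00688 over samples. Neurod6, a factor of excitatory cortical neurons, was at 273, 182 and 221 CPM against 77.9, 117 and 83.5 CPM, with adjusted p 0.175 and 0.000669 in the same order. Slc17a6, the glutamate transporter VGLUT2, stood at 96.9, 50.3 and 71.8 CPM against 15.3, 25.4 and 28 CPM and missed the threshold (adjusted p 0.264). For these 4 genes the sums of gated and other cells did not overlap over animals. Over samples, Slc17a6 overlapped, with 9.48 to 264 CPM against 11 to 41.8 CPM, was higher in 7 of 10 samples and did not pass (adjusted p 0.211 in edgeR's test).

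Genes of the mTOR pathway were counted next. Of 36 tested members of its complexes and regulators, 0 passed the test, and their median log2 fold change was -0.12, against -0.08 over all genes tested. The list held 2 members whose gated sums all lay above the other sums and 4 whose sums all lay below, where 5.59% and 10.9% of all genes tested did so. Mtor, Rptor and Rictor, the kinase and the scaffolds of its 2 complexes, overlapped between gated and other cells. Of 20 tested one-carbon and folate genes besides Aldh1l1, 0 passed (median -0.21), with 1 fully above and 1 fully below. Among 29 synaptic organizers, 0 passed (median -0.10), with 1 fully above and 8 fully below. This list was wider than the IL1RAPL family and its partners, with other receptor phosphatases, cerebellins and neuroligins on it. Lrrtm1, a postsynaptic adhesion protein, was one of the lower ones at 51.4, 117 and 119 CPM against 249, 224 and 259 CPM (log2 fold change -1.35, adjusted p 0.187). Il1rapl1, the close relative of Il1rapl2, was at 9.69, 27.2 and 23.4 CPM against 31.1, 29.8 and 27.3 CPM.

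Among families of surface and signalling genes, 1 member passed, and the counts below stand beside the 10.9% of all genes that lay fully below and the 5.59% fully above. Cadherins had a median log2 fold change of -0.86 over 24 tested members, with 9 fully below and 1 fully above, and Cdh13 alone passed. Collagens and laminins had a median of -1.11 over 25, with 8 fully below, 2 fully above and 0 passing. Of 59 potassium channel genes 0 passed, with 12 fully below and 4 fully above, and of 57 guidance genes 0 passed, with 12 below and 5 above. Neuropeptide genes had a median of -1.49 over 11 tested members, with 3 below and 0 above. The peptide genes Pdyn and Trh and the receptor genes Galr1 and Rxfp1 had 0 counts in the gated neurons. Immediate early genes had a median of 0.56 over 12, with 2 fully above, 0 below and 0 passing. Npas4, an activity-induced factor, was one of these at 85.3, 96.6 and 84.0 CPM against 34.1, 36.4 and 25.6 CPM (1.51, adjusted p 0.0862).

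The Deptor-gated neurons were next set beside the other gated groups, since all other cells are a mixture. In a joint fit, cells over 1 gate only were summed per animal into 6 classes, which share 1 estimate of spread and, in each comparison, the same sums of Deptor-gated neurons. Sums of fewer than 10 cells were left out, so the Osr1, Oprk1 and Car12 class and the Foxp2 and Syt6 class rest on 2 animals. S100a10 averaged 227 CPM ± 39.3 (SD, n = 3) in the Deptor-gated neurons, and between 8.17 CPM in the Tnnc2 and Eps8l2 class and 37.5 CPM in the Foxp2 and Syt6 class. Trbc2, at 159 CPM ± 37.6, was exceeded by the Foxp2 and Syt6 class at 278 CPM ± 79.0 (SD, n = 2) and was at 2.52 to 33.7 CPM in the other 4 classes. Wnt7b, at 72.5 CPM ± 13.2, was at 35.0 CPM ± 8.45 in the C1ql2 and Qrfpr class and at most 5.74 CPM in the remaining classes. Cdh13 averaged 9.36 CPM in the Deptor-gated neurons, 15.1 and 19.2 CPM in the Tnnc2 and Calb1 classes, and 104 to 178 CPM in the other 3, so its lower level was not shared across all neighbours. The RNA 6330527O06Rik, at 331 CPM here, averaged 863 to 1684 CPM in the C1ql2, Tnnc2 and Calb1 classes and 20.2 and 111 CPM in the Osr1 and Foxp2 classes. Its lower level against all other cells was therefore not shared either, and against the mean of the other 5 classes its log2 fold change was 0.11 (adjusted p 0.942). Etv1 was high in 3 classes, at 187 CPM here, 238 CPM in the Tnnc2 class and 311 CPM in the C1ql2 class, and at 1.25 to 30.9 CPM in the others.

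**Figure D4:**
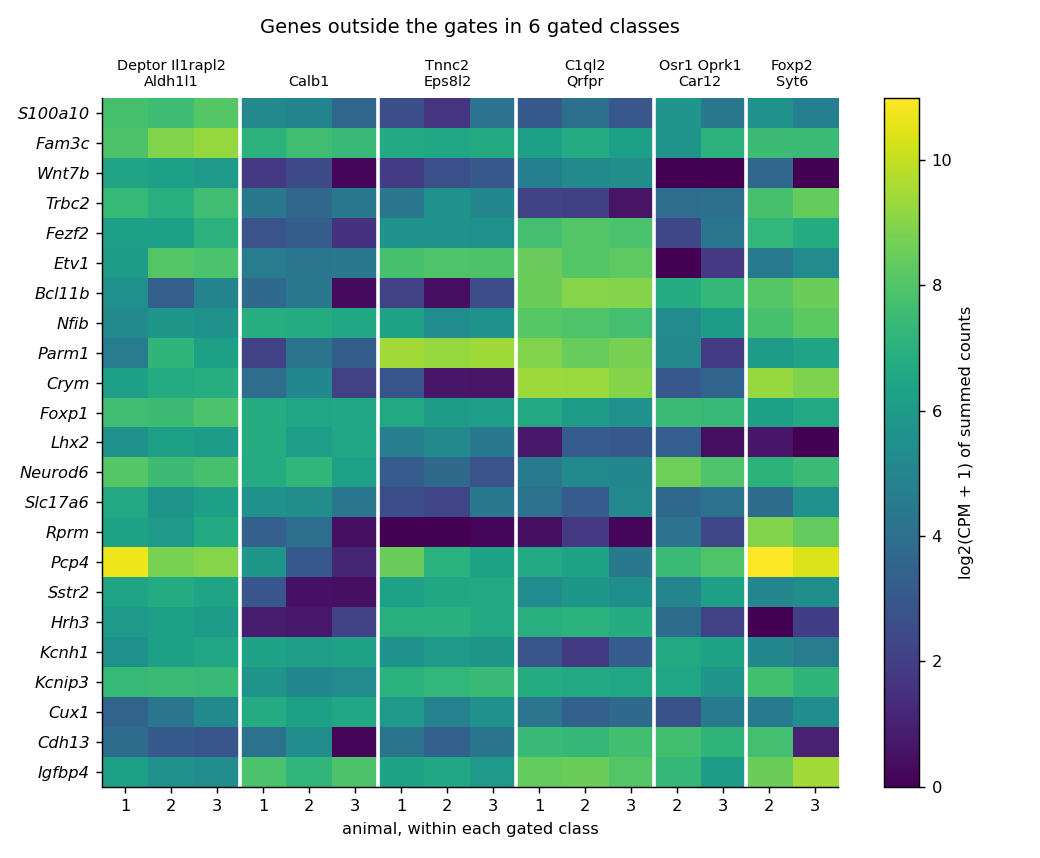
Heat map of log2(CPM + 1) for 23 genes in the sums of 6 gated classes, one column per class and animal. S100a10, Fam3c and Wnt7b are highest in the Deptor-gated columns, Etv1 is high in 3 classes, and the Osr1 and Foxp2 classes have columns for 2 animals.

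The level order over the 6 classes differed from one marker to the next. Rprm averaged 82.2 CPM ± 22.4 in the Deptor-gated neurons, below 400 CPM in the Foxp2 and Syt6 class (2 animals) and above the other 4 classes at 0.0398 to 10.6 CPM. Pcp4 followed the same order at its top, with 878 CPM ± 699 here and 1691 CPM ± 484 in the Foxp2 and Syt6 class. Animal 1 had the highest Pcp4 level here and no sum in that class, so the 2 spreads cover different animals. Sstr2 was as high in the Tnnc2 and Eps8l2 class (90.9 CPM ± 11.4) as here (91.6 CPM ± 12.8), and these neighbours in the order did not differ beyond their spread. Hrh3, at 66.8 CPM ± 6.19, was exceeded by the Tnnc2 and C1ql2 classes at 117 and 120 CPM and was at 1.5 to 8.54 CPM in the other 3. Chrm2 averaged 31.2 CPM ± 4.19 with a count in 19.4% of the cells, while the Osr1, Oprk1 and Car12 class stood at 193 CPM ± 30.1 with a count in 80%. Slc17a6 was highest in the Deptor-gated neurons at 73.0 CPM ± 23.4 and next in the Calb1 class at 36.5 CPM ± 15.7, with a count in 42.9 and 25.3% of the cells. Npas4 was highest here too, at 88.6 CPM ± 6.94, followed by the Osr1 class at 55.2 CPM ± 6.68 and the Calb1 class at 47.4 CPM ± 31.7, although the shares of cells with a count were alike at 42.9, 40 and 37.3%.

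The C1ql2 and Qrfpr class (110 cells) was named layer 5 extratelencephalic-like when the gates were proposed. It was the only other gated class given a layer 5 name, and its layer was not measured. Against it, 247 of 13169 genes passed (1.88%), 192 higher and 55 lower in the Deptor-gated neurons, with 1712 at an unadjusted p below 0.05. Transcription factors differed in both directions: of 28 tested, Foxp1, Lmo4 and Lhx2 were higher and Bcl11b and Nfib lower. Bcl11b was at 362, 508 and 492 CPM in that class against 44.6, 9.08 and 29.5 CPM (log2 fold change -4.21, SE 0.90, adjusted p 0.0186). Lmo4, a LIM-domain cofactor of cortical projection neurons, was at 493, 555 and 582 CPM in the Deptor-gated neurons against 140, 95.8 and 160 CPM (2.07, SE 0.17, adjusted p 6.92e-06). Nfib was at 35.9, 54.6 and 49.2 CPM against 277, 247 and 207 CPM (-2.32, SE 0.28, adjusted p 0.000220). Fezf2 was higher in each sum of that class, at 208, 266 and 234 CPM, but missed the threshold (-1.33, adjusted p 0.181), and Etv1 overlapped. Neurod6 also differed, at 21.7, 36.5 and 33.5 CPM in that class (2.89, SE 0.31, adjusted p 9.26e-05).

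Genes of excitability and synapses stand beside the whole comparison, in which 192 of 247 calls were higher in the Deptor-gated neurons. Of 61 potassium channel genes, 6 were higher (Kcnc1, Kcnc2, Kcnh1, Kcnh5, Kcnk2 and Kcnv1) and 1, the calcium-activated channel Kcnn2, was lower, with a list median of 0.12 against -0.02 over all genes. Kcnh1, a voltage-gated channel of the EAG family, was at 44.6, 75.2 and 85.9 CPM against 6.20, 2.64 and 8.25 CPM (3.62, SE 0.40, adjusted p 0.000102). Syt13, a synaptotagmin, was at 325, 376 and 370 CPM against 105, 121 and 112 CPM (1.67, SE 0.13, adjusted p 5.62e-06), whereas Syt2, a fast calcium sensor of release, was at 0, 1.70 and 5.18 CPM against 54.4, 73.5 and 77.0 CPM (-5.02, SE 0.78, adjusted p 0.00257). Chrm2, the muscarinic M2 receptor, was at 35.9, 29.9 and 27.8 CPM against 0.345, 0.126 and 0 CPM (7.99, SE 1.19, adjusted p 0.00154). Ptprk, a receptor phosphatase related to Ptprm, was at 21.3, 19.9 and 22.4 CPM against 0, 0.503 and 0.127 CPM (6.50, SE 0.83, adjusted p 0.000440). Of 12 immediate early genes, 6 were higher (Fos, Junb, Egr1, Arc, Npas4 and Ier2) and 0 lower, with a list median of 1.11. Egr1 was at 324, 373 and 349 CPM against 134, 159 and 169 CPM (1.19, SE 0.13, adjusted p 0.000102).

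Several genes were at 0 in one of these 2 classes. Batf3 and Scx were each at least 113-fold higher in the Deptor-gated neurons than a floor of 3 counts over the whole C1ql2 and Qrfpr class, Hrh1, the histamine H1 receptor, at least 94.4-fold, the netrin receptor gene Dcc at least 74.3-fold and the semaphorin receptor gene Nrp2 at least 31.2-fold. In the other direction, Nrtn (neurturin) was at 15.5, 30.1 and 77.8 CPM in that class and 0 in the Deptor-gated neurons, at least 243-fold lower, and Pdyn (prodynorphin) at least 126-fold lower. Of 54 named genes that passed, 16 did so with each animal left out in turn, among them Foxp1, Lmo4, Nfib, Neurod6, Kcnh1, Chrm2, Syt13, Ptprk, Egr1 and Npas4. Without animal 1 the count of genes fell to 101, and Bcl11b, Lhx2, Kcnc1, Kcnc2, Kcnh5, Kcnv1, Kcnn2, Syt2, Fos, Junb, Arc, Ier2, Dcc, Nrp2, Pdyn, Batf3 and Scx no longer passed. Hrh1 was lost without animal 2 and Nrtn and Kcnk2 without animal 2 or 3, so that Kcnh1 alone of the 7 potassium channel genes passed with each animal left out.

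Against the Osr1, Oprk1 and Car12 class (40 cells), which was named layer 6 intratelencephalic-like, 234 of 13169 genes passed (1.78%), 188 higher and 46 lower, with 1885 at an unadjusted p below 0.05. Etv1 and Fezf2 of the layer 5 markers were higher here, but so were markers of other groups. These were Scnn1a and Rspo1 of layer 4, Lypd1 and Tshz2 of the near-projecting markers and Crym of the corticothalamic markers. Etv1 was at 64.0, 265 and 233 CPM against 0 and 2.51 CPM in animals 2 and 3 of that class (log2 fold change 7.16, SE 0.73, adjusted p 0.000191), and Fezf2 at 72.7, 73.7 and 133 CPM against 4.17 and 19.1 CPM (3.0, SE 0.61, adjusted p 0.0196). Tshz2, a zinc finger factor, was at 336, 461 and 776 CPM against 11.4 and 32.3 CPM (4.56, SE 0.44, adjusted p 0.000127). Foxp1 and Neurod6 did not pass, with Foxp1 at 180 and 162 CPM and Neurod6 at 383 and 246 CPM in that class. The sodium channel gene Scn1a was at 211, 211 and 335 CPM against 54.2 and 113 CPM (1.63, SE 0.21, adjusted p 0.00121). Wnt7b had 0 counts in that class and was at least 128-fold higher, Pamr1 at least 150-fold and Pdzrn3, a ubiquitin ligase, at least 89.5-fold. Of the genes lower in the Deptor-gated neurons, Zfp804a was at 0.969, 0.945 and 2.93 CPM against 48.1 and 49.2 CPM (-4.95, SE 0.75, adjusted p 0.00323), and Npy at 0, 0.378 and 0 CPM against 149 and 3.13 CPM. Without animal 1 the count of genes fell to 120. Of 33 named genes, 16 then passed, among them Etv1, Tshz2, Scn1a, Pamr1, Pdzrn3 and Zfp804a. Fezf2, Npy, Wnt7b, Scnn1a and Crym were lost. Animal 1 had no sum in the Osr1, Oprk1 and Car12 class, so this refit took away none of that class. Leaving out animal 2 or 3 left 1 sum of it, which is no check over its replicates. Fezf2, Npy and Zfp804a were lost without animal 2.

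Against the Calb1 class (158 cells), which was named superficial excitatory, 153 of 13169 genes passed (1.16%), 102 higher and 51 lower, with 1489 at an unadjusted p below 0.05. Of 33 named genes, 4 passed with each animal left out (Sstr2, Pcp4, Etv1 and Kcnip3). Sstr2, a somatostatin receptor, was at 83.4, 106 and 85.1 CPM against 6.78, 0.460 and 0.377 CPM (log2 fold change 6.47, SE 0.78, adjusted p 0.000696). Pcp4, a calmodulin-binding peptide of deep cortical layers, was at 1684, 439 and 513 CPM against 55.1, 7.05 and 1.19 CPM (6.28, SE 0.64, adjusted p 0.000285), and its level in animal 1 stood above the others in both groups. Kcnip3, a potassium channel partner, was at 163, 181 and 174 CPM against 50, 33.6 and 38 CPM (2.12, SE 0.23, adjusted p 0.000422). Etv1 was at 24.6, 18.7 and 20.1 CPM in the Calb1 class (3.18, SE 0.45, adjusted p 0.00153). The histamine receptor gene Hrh3 was at 61.1, 73.4 and 65.9 CPM against 0.847, 0.613 and 3.46 CPM (5.02, SE 0.64, adjusted p 0.000897). Lower genes included Cux1, a factor of upper layers, at 10.7, 18.9 and 37.8 CPM against 107, 75.3 and 94.7 CPM (-2.01, SE 0.43, adjusted p 0.0278), and the reelin gene Reln at 0, 0 and 0.225 CPM against 18.6, 3.37 and 17 CPM. Without animal 1 the count fell to 33 genes, and Hrh3, Cux1 and Reln were among those lost; Cux1 and Reln were also lost without animal 2 or 3.

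The same lists were counted in the comparisons of classes, where 1.88, 1.78 and 1.16% of all genes passed against the C1ql2, Osr1 and Calb1 classes. Of 36 mTOR pathway genes, 1 passed against the C1ql2 and Qrfpr class and 0 against each of the Osr1 and Calb1 classes. The one was Rragd, a Rag GTPase that brings mTOR to the lysosome, at 73.7, 68.4 and 69.1 CPM against 20, 11.3 and 31.3 CPM (log2 fold change 1.80, SE 0.37, adjusted p 0.0141), and it was lost without animal 1. Of 20 folate genes, 0 passed in each of the 3 comparisons. Among 29 synaptic organizers, Ptprk, Ptpru and Cbln2 were higher against the C1ql2 class, Ptprf higher and C1ql3 lower against the Osr1 class, and Ptpru higher against the Calb1 class. The calls of Cbln2, Ptprf and C1ql3 were lost without animal 1. Ptpru, another receptor phosphatase of the family of Ptprm, stood at 35.9, 29.1 and 38.7 CPM against 2.54, 8.74 and 3.08 CPM in the Calb1 class (2.95, SE 0.63, adjusted p 0.0252), and it was lost in both comparisons without animal 1 or without animal 3. Of 61 potassium channel genes, 4 were higher against the Osr1 class (Kcnab3, Kcnc4, Kcnip3 and Kcnk2) and 2 against the Calb1 class (Kcnab1 and Kcnip3), with 0 lower in both. Kcnip3 was at 89.1 and 52.9 CPM in the Osr1 class (1.27, SE 0.26, adjusted p 0.0201), a call lost with any 1 animal left out, as was that of Kcnc4. Against the same class Kcnk2 was lost without animal 2 or 3 and Kcnab3 without animal 3, where 1 sum of the Osr1 class was left. Kcnab1 was lost against the Calb1 class without animal 1. Among glutamate and GABA receptor genes, Grm5 was higher against the Osr1 class (115, 163 and 155 CPM against 63.3 and 67.7 CPM), and Grik3 was higher and Gabrd lower against the Calb1 class. The Grm5 call was lost without animal 2 or 3, and that of Grik3 without animal 1 or 3. Gabrd, the delta subunit of tonic GABA-A receptors, was at 85.3, 129 and 90.2 CPM against 234, 293 and 298 CPM (-1.41, SE 0.24, adjusted p 0.00653), also lost without animal 1. Immediate early genes had 0 calls against the Osr1 and Calb1 classes, with medians of 0.60 and 0.48.

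Over the 16 sums per animal and class, the genes with the pattern most like that of Deptor were Il1rapl2 (Pearson r of log2(CPM + 1) 0.84), Ptprm (0.84), Vill (0.80), Trappc9 (0.79) and Aplp2 (0.79), of 10195 genes ranked. The sums share animals and the gate itself, so these values are a description. Vill, a villin-like gene, stood at 22.3, 33.1 and 25.9 CPM in the gated neurons against 6.17, 3.86 and 6.24 CPM in all other cells.

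Within the gated neurons, cells differed in which gate gene was highest: Deptor in 58, Aldh1l1 in 27 and Il1rapl2 in 13. Sums over these cells are described without a test, since the gate genes set the split. S100a10 was at 238, 211 and 301 CPM in the order Deptor, Aldh1l1 and Il1rapl2. In animal 1 it was at 275 CPM over 11 cells with Deptor highest and at 60.5 CPM over 3 cells with Aldh1l1 highest. Wnt7b was at 59.5, 94.2 and 27.2 CPM in the same order. Its top level lay in the Aldh1l1 cells of animals 1 and 2 (189 and 158 CPM) and in the Deptor cells of animal 3 (67.3 CPM). Etv1 was at 205, 289 and 210 CPM and Fezf2 at 123, 82.0 and 113 CPM. Rprm, a p53 target that marks deep-layer neurons, was at 114 and 122 CPM where Deptor or Il1rapl2 was highest and at 26.3 CPM where Aldh1l1 was highest. Aldoc was at 109 CPM where Aldh1l1 was highest and at 270 CPM where Deptor was highest, with a count in 51.9 and 86.2% of these cells. Cells with a count of Il1rapl2 (40) had a median total of 176994 counts against 136588 in the 58 without. With cells thinned to 50000 counts, 37 had a count and 55 did not, and the original median totals of these cells were 184936 and 138057 counts.

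Along the anterior to posterior axis, 0 of 9810 genes tested within the Deptor-gated neurons passed between posterior and anterior sums (0%), with 405 at an unadjusted p below 0.05, and DESeq2 called 21. Deptor itself was at 244, 159 and 133 CPM in anterior and 293, 177 and 224 CPM in posterior sums of animals 1, 2 and 3. These sums held 6, 14 and 16 anterior and 5, 13 and 21 posterior cells, so a level can rest on few cells. Gated neurons had a median of 177774 counts at the anterior and 135042 at the posterior level, and the part of depth was not tested. Fezf2 was at 26.3, 41.9 and 88.8 CPM in anterior and 215, 129 and 151 CPM in posterior sums, which did not overlap (log2 fold change 1.67, SE 0.47, adjusted p 0.998). Slc17a6 was at 0, 18 and 38.4 CPM in anterior and 368, 98.4 and 91.0 CPM in posterior sums (2.95, SE 0.94, adjusted p 0.998). The activity-regulated genes Bdnf, Fos and Junb, chosen after their values were seen, did not pass. Bdnf, the neurotrophin gene, was at 678, 511 and 329 CPM in anterior and 66.8, 66.5 and 143 CPM in posterior sums (-2.48, SE 0.39, adjusted p 0.379). Fos was at 179, 301 and 199 CPM against 66.8, 70.0 and 29.6 CPM (-2.19, SE 0.37, adjusted p 0.379), and Junb at 260, 586 and 367 CPM against 178, 211 and 65.7 CPM (-1.59, SE 0.34, adjusted p 0.998). The 11 tested immediate early genes had a median of -1.59, against -0.11 over all genes, and 0 passed. Nnat, the neuronatin gene, was at 0, 12.6 and 2.75 CPM in anterior and 3.71, 24.3 and 0.985 CPM in posterior sums and was too low to be tested.

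Between medium and anterior sums, 1 of 9227 genes passed (0.0108%), with 248 at an unadjusted p below 0.05. It was Penk, the proenkephalin gene, at 0, 24.5 and 0.305 CPM in anterior and 889, 417 and 0.781 CPM in medium sums (log2 fold change 5.26, SE 0.89, adjusted p 0.0468). The 414 medium counts came from 6 cells, of which 1 cell of animal 2 held 309 counts and 1 of animal 1 held 70. The call was lost without the replicate block (adjusted p 1.00), in DESeq2 (adjusted p 0.712) and without animal 1 (adjusted p 1.00).

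On the sections, spots were sorted by whether they held a count of Deptor: 122 with and 900 without in section S4, and 95 with and 856 without in section S8. Spots hold several cells, and other cell types may also contain Deptor, so this is no map of the gated neurons, and less of a transcript in a spot cannot be told apart from fewer cells that make it. Of 12138 genes tested, 10 passed (0.0824%), 1 higher and 9 lower in spots with Deptor, with 1042 at an unadjusted p below 0.05. The higher gene was Myl4, a myosin light chain, at 81.0 and 62.7 CPM in spots with Deptor against 37.8 and 33.3 CPM (log2 fold change 1.03, SE 0.16, adjusted p 1.80e-05 in edgeR's test). Among the lower genes, Otof was at 6.16 and 2.92 CPM against 14.1 and 22.3 CPM (-1.80, adjusted p 0.0142), and Lpl, lipoprotein lipase, at 7.92 and 2.92 CPM against 21.4 and 19.6 CPM (-1.78, adjusted p 0.00480). Both were also lower in the Deptor-gated neurons than in the Calb1 class, at 0, 0.189 and 0.113 CPM each, but both of those calls were lost with any 1 animal left out. Trh, the thyrotropin-releasing hormone gene, was at 1.76 and 2.92 CPM against 10.5 and 10.9 CPM (-2.26). Calb1, a gene of the gate, was at 114 and 91.9 CPM against 225 and 173 CPM.

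Some genes described in the dissociated neurons were also read in the spots. Etv1 was at 167 and 179 CPM in spots with Deptor against 139 and 127 CPM (log2 fold change 0.36, adjusted p 0.0432) and Foxp1 at 100 and 71.5 CPM against 61.5 and 58.4 CPM (0.56, adjusted p 0.0178), both below the fold limit. Fezf2 was at 49.3 and 56.9 CPM against 32.7 and 41.7 CPM (0.52, adjusted p 0.182). S100a10 was at 75.7 and 64.2 CPM against 73.6 and 64.3 CPM in spots. The spot calls changed with the model: without the replicate block and in DESeq2 0 genes passed, and none of the 7 named spot genes passed with the limit at 2 counts of Deptor or with spots thinned to 4000 counts.

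**Figure D5:**
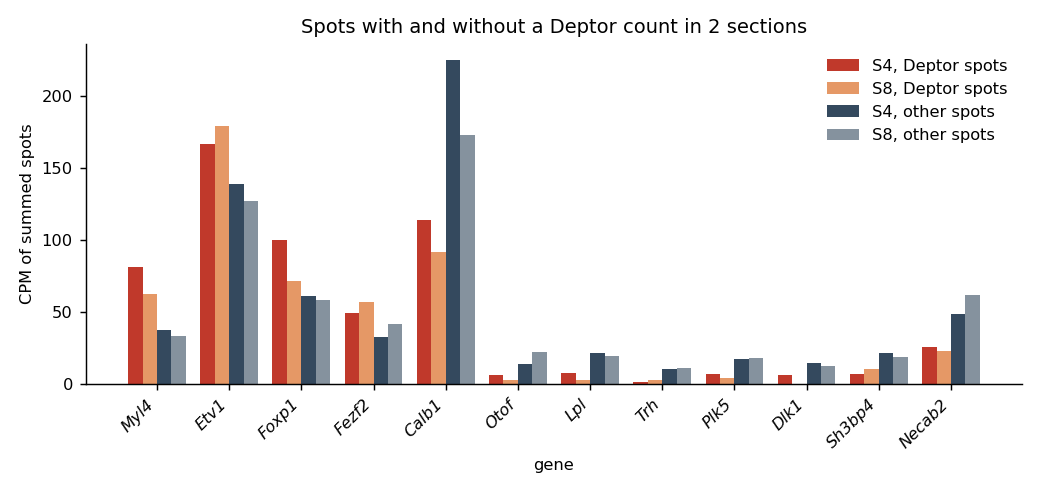
Level in CPM of 12 genes in spots with and without a count of Deptor, one bar per section. Myl4 is higher and Calb1, Otof, Lpl, Trh, Plk5, Dlk1, Sh3bp4 and Necab2 are lower in spots with Deptor in both sections, and Etv1, Foxp1 and Fezf2 differ by less.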

How the data were processed

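The cell table holds raw counts for 15114 genes in 765 cells and the section table raw counts for 32285 genes in 1973 spots, as deposited by the authors; neither is normalized. The submitters' processing notes name Seurat, Space Ranger and the builds NCBIM37 and mm10 with no versions or roles. Whether counts are reads or molecules, strand, aligner and filters are not given in the sources used here, and intervals cover counting error only. The animal came from the deposited cell annotation and the level from the deposited cell names; 0 columns were left unmapped.

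Counts were summed per animal, class, level or section filtered with filterByExpr, scaled by TMM and put through the quasi-likelihood test of edgeR 4.0.16 (R 4.3.3) with animal or section as a block, because both sums come from the same mouse or section. A call needs a Benjamini-Hochberg adjusted p below 0.05 and a change of 1 or more on the log2 scale in either direction. The 13 gate genes and Ptprm were left out of calls. DESeq2 1.42.0 was an alternative. Scripts were tested on simulated data.

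Members and lists were chosen with earlier results of these data known. Named were called genes changed alike in every animal (up to 15 each way against all other cells, 6 per other contrast, excluding gate, predicted, ribosomal and mitochondrial genes), called list members, Nnat, and the 5 genes most like Deptor. Not every named gene is described above, and many called list members are left out. List members that missed are given as values. No coordinates or sequences are given. One result is not reported here.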

Additional observations from a re-analysis of the deposited data

How the results depend on the processing

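Against all other cells, 7 genes passed; the count was 9 without the replicate block, 210 in DESeq2, 15 with no filter on low counts, 141 with sums per sample, 19 and 35 with the gate at 50 and 200 CPM, 23 without Aldh1l1 in the gate, 35 with cells thinned to 50000 counts, 4 without the 10% of cells with the fewest counts and 0 to 17 with 1 animal left out. Chosen after seeing the data, cells with 2 or more gate genes gave 37 and the mean of the other 5 gated classes 128. The 7 genes kept their direction in each of these settings except the last, where 6330527O06Rik reversed (0.11). Cdh13 missed the threshold there (adjusted p 0.335) and with the gate at 200 CPM, and Wnt7b (0.0876), Trbc2 and 6330527O06Rik missed it without the cells with the fewest counts. DESeq2 gave 487 genes against the C1ql2 and Qrfpr class, 563 against the Osr1, Oprk1 and Car12 class and 336 against the Calb1 class, and leaving out 1 animal gave 101 to 206, 93 to 155 and 33 to 140. Without the replicate block these were 232, 219 and 144. Posterior against anterior gave 21 in DESeq2, 6 with no filter and 0 to 1 with 1 animal left out. Medium against anterior gave 0 without the replicate block, 8 in DESeq2, 6 with no filter, 0 to 4 with 1 animal left out and, chosen after seeing the data, 7 without the Penk-rich cells. The spots gave 0 without the replicate block, 0 in DESeq2, 6 at 2 counts of Deptor, 2 when thinned and 0 among spots with Tshz2. The share difference ran from -3.83 to 1.2 points with 1 animal left out. Of the single-gene values, 614 stayed on the same side of the threshold with the same direction, 252 lost the threshold and 1 reversed. The cause of these changes was not tested. Fewer sums remain when any animal is left out. Animal 1 had 14 gated neurons, with 1031473 counts in their sum.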
